A study of Mus musculus with 10 samples.

Results

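The genes described here make glycerol-based lipids, break them down and coat the droplets that store them. They are 47 mouse genes listed by name, covering the supply of glycerol 3-phosphate, phosphatidic acid and diacylglycerol, triglyceride, membrane phospholipid, lipolysis and lipid droplet proteins. Of the 21010 genes in the count table, 46 carried a listed symbol, and Gk (glycerol kinase) was found under its older symbol Gyk. After a filter on low counts, 45 of the 47 were among the 15728 genes tested, and Cidea and Cidec were below it.

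RNA sequencing had been done on 5 KMS and 5 KM mice of the C57BL/6 strain, aged 20 weeks, with 1 library per mouse. KMS mice combine Ksp1.3/cre and MYCfl/fl with Setd2fl/fl, and KM mice have Ksp1.3/cre and MYCfl/fl alone. Both genotypes carry a Cre recombinase driven by the promoter of Cdh16 (Ksp-cadherin), which is active in renal tubule epithelium, and MYC overexpression that gives polycystic kidneys, and KMS differs by the floxed alleles of Setd2, the methyltransferase that places H3K36me3. The sources differ on the RNA: the methods name kidney tissue, the Reporting Summary gives neoplastic masses for KMS and cysts for KM, and the labels give primary tubular epithelial cells from the cortex. Genotype and dissected tissue therefore cannot be told apart. Mice of both sexes were used according to the Reporting Summary, and the labels do not give the sex of each mouse.

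Cells build triglyceride and most phospholipids from a shared trunk. Glycerol 3-phosphate takes up a pair of fatty acids to give phosphatidic acid, and lipins remove its phosphate to give diacylglycerol. Diacylglycerol is then either capped with another fatty acid to give triglyceride, or joined to activated choline or ethanolamine to give membrane phospholipid, while a side branch through CDP-diacylglycerol leads to phosphatidylinositol and cardiolipin. Triglyceride is kept in droplets coated by perilipins and is opened again by lipases. Proximal tubule cells of the kidney live largely on fatty acids, and clear cell renal carcinoma is known for its lipid droplets.

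Total counts were 16925118 to 25029639 in KMS and 10873993 to 14564152 in KM. KMS replicate 5 stood apart: its TMM factor was 0.642 against 0.938 to 1.03 in the other KMS libraries, mitochondrial genes took 4.26% of its reads, and its Spearman correlation with its own group averaged 0.851, against 0.913 to 0.923 for the other 4. The closest pair, KM replicates 1 and 2 (Spearman 0.993), still differed by more than counting error. Its squared count differences averaged 5.88 times those of counting error, against 48.9 times in the next pair by this measure, KM replicates 4 and 5. The labels do not say how these libraries are related, and the tests treat each library as a separate mouse. Setd2 itself had 89.0, 36.2, 71.1, 60.4 and 28.2 CPM (counts scaled to the library's total and its TMM factor from edgeR) in KMS replicates 1 to 5, against 67.9, 62.6, 73.3, 66.2 and 69.4 CPM in KM. Its log2 fold change was -0.25 with a standard error of 0.29 (edgeR adjusted p = 0.658). The counts cover the whole gene and the sources used here do not say which exons are lost, so this level does not check the genotype. Summed markers of tubule epithelium, which define the labelled cells, were present at 1325 to 2017 CPM in KMS and 1292 to 2109 CPM in KM.

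No lipid gene of the list passed the test between KMS and KM. A gene was called at an edgeR adjusted p under 0.05 and a fold change over 1.5, and 0 of the 45 tested members met this, beside 0.102% of all tested genes (16 of 15728). The lowest adjusted p among members was 0.168, for Pnpla2. At an unadjusted p under 0.05 there were 9 members, all with the higher mean in KMS. They were 20% of the members. Over all tested genes 19.5% had such a p, 10.8% with the higher and 8.62% with the lower mean in KMS. Of the other tools, limma-voom called 0 members beside 0.21% of all genes, and the likelihood ratio test of edgeR called 0 beside 3.83%. DESeq2 called 1 member, Pnpla2 (log2 fold change 1.40, adjusted p = 0.0440), beside 5.1% of all genes, or 1.21% with the higher mean in KMS.

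Most members had the higher mean in KMS, although no single difference was called by this test. Log2 fold changes were positive for 37 of the 45 members (82.2%), beside 54.0% of all tested genes, and their median was 0.28, beside 0.06 over all tested genes. With upper-quartile factors in place of TMM, the median over all tested genes moved to -0.09 and that of the members to 0.14, so both moved down together and the members' position against 0 depended on the scaling. The KMS and KM libraries did not overlap for 1 member, Gpd1l, or 2.22% of those tested, beside 4.79% of all tested genes (1.84% higher and 2.94% lower in KMS). In bulk libraries, fewer cells of a type and less RNA per cell cannot be told apart.

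**Figure D1:**
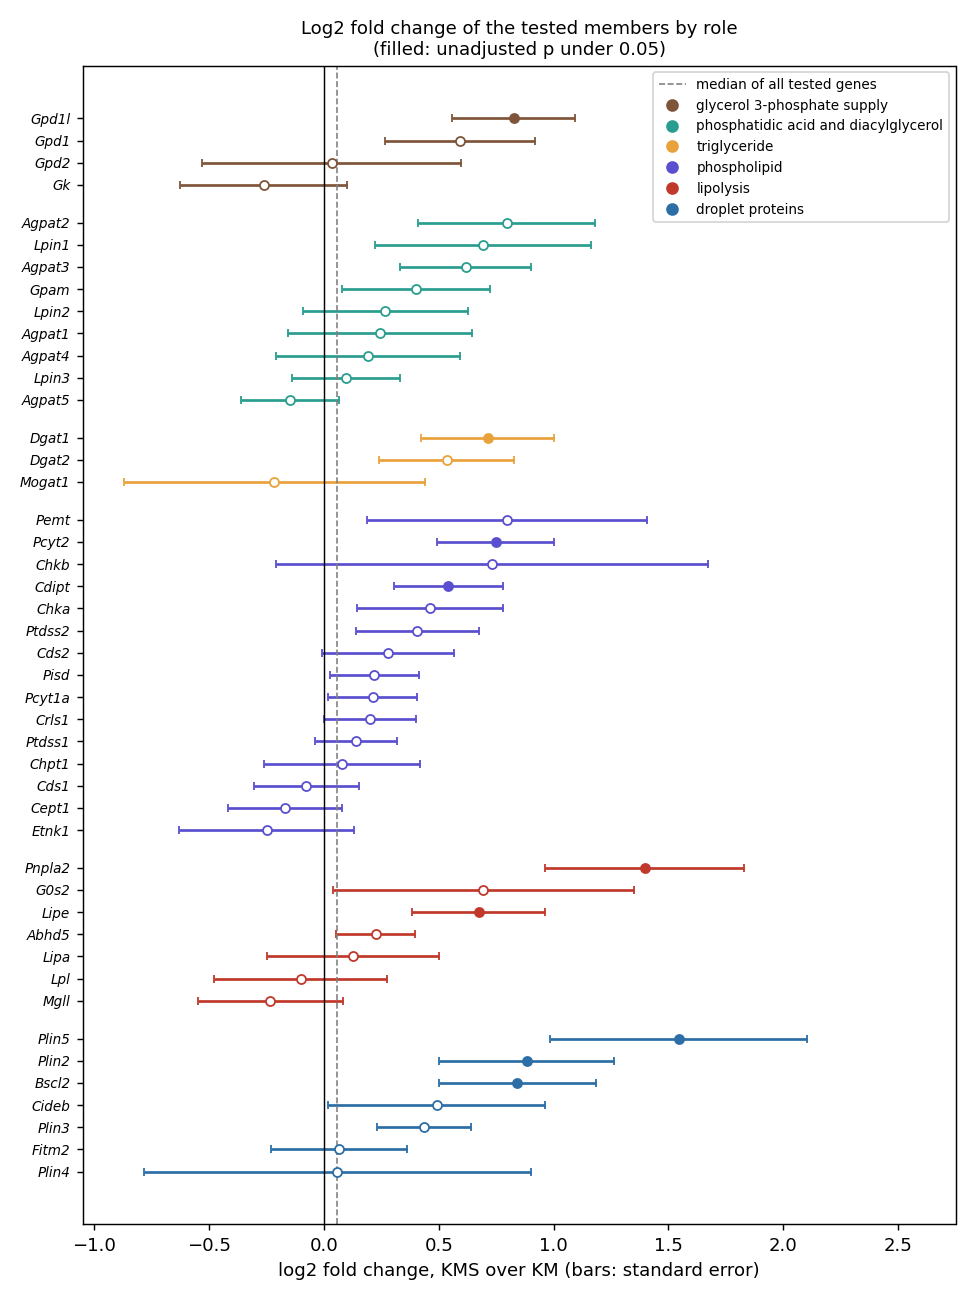
Log2 fold change of KMS over KM for each of the 45 tested members, grouped by role, with the standard error as bars. Filled points are the 9 members with an unadjusted p under 0.05, the dashed line is the median of all tested genes (0.06), and 37 points lie right of 0.

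Among these 9 members, Pnpla2, Plin5 and Plin2 stood highest in KMS replicates 1 and 5, as did Lipe and Bscl2. Gpd1l was the member without overlap. The promoters of Pnpla2, Gpd1l, Plin5 and Plin2 are shown as RefSeq gives them on GRCm38.p6, from 250 bases before the start to 50 after. The short elements near each start can so be read beside the levels. Capitals mark 3 elements searched on both strands. CACGTG is the E-box that MYC with MAX is known to bind. GGGCGG is the GC box of Sp factors. AGGTCA is the core element of nuclear receptors such as the PPARs. The last 2 are also capitalized where they read on the other strand. No capitals of different elements overlap. Pnpla2 lies at chr7:141454938-141455237 on the plus strand, Gpd1l at chr9:114933938-114934237, Plin5 at chr17:56117499-56117798 (1 of 2 windows in the table) and Plin2 at chr4:86670010-86670309, these 3 on the minus strand.
Pnpla2: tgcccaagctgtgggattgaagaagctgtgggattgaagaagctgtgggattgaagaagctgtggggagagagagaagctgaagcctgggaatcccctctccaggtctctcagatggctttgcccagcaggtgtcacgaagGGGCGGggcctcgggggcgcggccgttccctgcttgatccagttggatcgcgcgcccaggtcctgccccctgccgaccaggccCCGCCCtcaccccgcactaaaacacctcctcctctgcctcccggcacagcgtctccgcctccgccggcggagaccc
Gpd1l: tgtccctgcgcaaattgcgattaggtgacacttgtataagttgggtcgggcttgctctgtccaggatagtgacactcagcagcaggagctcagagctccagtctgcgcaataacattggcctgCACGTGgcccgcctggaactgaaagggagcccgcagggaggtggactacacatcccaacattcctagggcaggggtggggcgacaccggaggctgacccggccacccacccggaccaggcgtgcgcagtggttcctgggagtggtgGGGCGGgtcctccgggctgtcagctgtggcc
Plin5: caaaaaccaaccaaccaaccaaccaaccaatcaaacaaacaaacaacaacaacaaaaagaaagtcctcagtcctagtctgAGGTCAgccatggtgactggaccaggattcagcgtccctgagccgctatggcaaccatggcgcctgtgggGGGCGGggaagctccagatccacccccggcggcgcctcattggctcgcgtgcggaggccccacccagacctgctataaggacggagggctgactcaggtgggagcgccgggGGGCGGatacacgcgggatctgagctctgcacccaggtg
Plin2: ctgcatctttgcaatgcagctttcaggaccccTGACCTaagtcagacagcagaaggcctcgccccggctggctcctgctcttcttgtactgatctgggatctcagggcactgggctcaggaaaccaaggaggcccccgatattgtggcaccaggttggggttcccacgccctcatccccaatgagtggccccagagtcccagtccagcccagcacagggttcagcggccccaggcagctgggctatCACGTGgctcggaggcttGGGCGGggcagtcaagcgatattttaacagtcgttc

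An E-box was found in Gpd1l and Plin2, a GC box in each of the 4 windows, and the AGGTCA element in Plin5 and Plin2. Among the members not shown, Lipe had an E-box and a GC box, and Bscl2 a GC box and AGGTCA. For Pcyt2, Dgat1 and Cdipt, the rest of the members with an unadjusted p under 0.05, no match was found. Whether they had a window without a match or no window was not separated here. Over the 38 members with a promoter in the RefSeq table (58 windows), 8 windows (13.8%) held CACGTG, beside 7.15% of all 32851 windows of the same length. The GC box was in 36 of the 58 windows (62.1%), beside 35.7%, and AGGTCA in 9 (15.5%), beside 16.3%. A match of letters is a description of the window and not a bound site.

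In the supply of glycerol 3-phosphate, the lowest p was that of Gpd1l, which like Gpd1 reduces dihydroxyacetone phosphate from glycolysis. Gpd1l had 233, 215, 129.8, 139 and 118 CPM in KMS replicates 1 to 5, against 68.9, 67.5, 111, 110.0 and 113 CPM in KM. Every KMS library was above every KM library, although KMS replicate 5 passed the highest KM library by little, and KM replicates 1 and 2 lay below the other KM libraries. The fold change was 1.77 (log2 0.83, standard error 0.27, n = 5 each), with an edgeR unadjusted p of 0.00968 and an adjusted p of 0.182. Gpd1, the cytosolic enzyme, averaged 326 ± 132 CPM in KMS and 216 ± 53.0 CPM in KM (SD, n = 5 each), with 3 KMS libraries above all KM libraries and an edgeR adjusted p of 0.338.

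Gk phosphorylates free glycerol and had the highest mean CPM of this role over all 10 libraries, although in KMS alone Gpd1 was higher. It had 141, 202, 394, 525 and 231 CPM in KMS replicates 1 to 5, against 446, 343, 413, 376 and 217 CPM in KM, so the groups overlapped, with KMS replicates 1 and 2 the lowest of all 10 libraries. The same KMS libraries had the lowest summed proximal tubule markers, 1967 and 1851 CPM, against 5070 to 10369 CPM in KMS replicates 3 to 5 and 4228 to 5477 CPM in KM, and the part of this in Gk was not tested. Its log2 fold change was -0.26 with a standard error of 0.36 (edgeR adjusted p = 0.726). Gpd2, the mitochondrial glycerol 3-phosphate dehydrogenase, averaged 8.05 ± 7.61 CPM in KMS and 7.86 ± 3.69 CPM in KM, and its log2 fold change moved to -0.71 without KMS replicate 5, where it reached 21.2 CPM.

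Phosphatidic acid and diacylglycerol are made by Gpam, a mitochondrial acyltransferase that takes the first step, by the Agpat enzymes that add the next fatty acid, and by the phosphatases Lpin1, Lpin2 and Lpin3. None of the 9 had an unadjusted p under 0.05, 8 had a positive log2 fold change, and their median was 0.27. Agpat3, with the most reads of the role, had 396, 234, 307, 343 and 489 CPM in KMS replicates 1 to 5, against 245, 209, 356, 188 and 157 CPM in KM. KMS replicates 1 and 5 were above every KM library, and KM replicate 3 lay within the KMS range. Its fold change was 1.53 (log2 0.62, standard error 0.29), with an edgeR unadjusted p of 0.0521, just outside the 9.

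Agpat2, whose loss causes generalized lipodystrophy, averaged 53.0 ± 35.8 CPM in KMS and 30.5 ± 7.87 CPM in KM, with 114 CPM in KMS replicate 5 (edgeR adjusted p = 0.276). Lpin1 reached 183 CPM in KMS replicate 1 and was 23.4 to 72.0 CPM in the other KMS libraries, against 37.4 to 69.7 CPM in KM. Without that library its log2 fold change was 0.07 in place of 0.69. Lpin2 showed the same library on top, with 132 CPM in KMS replicate 1 and 34.9 to 108 CPM in the others, against 57.9 to 90.2 CPM in KM. Gpam was also highest there, at 296 CPM, and its log2 fold change of 0.40 became 0.14 without it. Agpat1 had 179.6 CPM in KMS replicate 5 and 32.6 to 80.1 CPM in the other KMS libraries, against 44.7 to 90.1 CPM in KM, and its log2 fold change of 0.24 became -0.26 without that library. Agpat4, Agpat5 and Lpin3 had log2 fold changes of 0.19, -0.15 and 0.10.

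Triglyceride synthesis ends with the acyltransferases Dgat1 and Dgat2, which are unrelated in sequence. Dgat1 had 33.8, 40.3, 27.6, 30.7 and 77.4 CPM in KMS replicates 1 to 5, against 31.1, 26.8, 21.4, 21.1 and 27.6 CPM in KM. KMS replicates 1, 2 and 5 were above every KM library and the other KMS libraries were within the KM range. This gave a fold change of 1.64 (log2 0.71, standard error 0.29), with an edgeR unadjusted p of 0.0307 and an adjusted p of 0.222. Without KMS replicate 5 the log2 fold change was 0.39 (unadjusted p = 0.0580 in edgeR).

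Dgat2, with the most reads of the role, had 91.8, 73.3, 125, 115 and 222 CPM in KMS replicates 1 to 5, against 92.2, 89.2, 113, 72.5 and 66.0 CPM in KM. KMS replicates 3, 4 and 5 were above every KM library and the other KMS libraries were within the KM range. Dgat2 gave a fold change of 1.45 with an edgeR adjusted p of 0.336, and the log2 fold change of 0.53 became 0.25 without KMS replicate 5. Mogat1, which makes diacylglycerol from monoacylglycerol, ranged from 6.18 to 83.9 CPM in KMS and from 7.36 to 74.3 CPM in KM, with a coefficient of variation of 79.0% in KMS and 60.6% in KM.

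Phospholipid enzymes were the largest role, with 15 members, of which 12 had a positive log2 fold change, with a median of 0.22. Pcyt2 sets the pace of phosphatidylethanolamine synthesis by making CDP-ethanolamine. It had 83.1, 131, 141, 157 and 233 CPM in KMS replicates 1 to 5, against 93.4, 83.6, 99.3, 75.5 and 92.1 CPM in KM. KMS replicates 2 to 5 were above every KM library, and KMS replicate 1 lay within the KM range, the reverse of Pnpla2 and Plin2, where replicate 1 was the highest. This amounted to a fold change of 1.68 (log2 0.75, standard error 0.25), with an edgeR unadjusted p of 0.0126 and an adjusted p of 0.188.

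Cdipt, the phosphatidylinositol synthase, had 83.8, 93.4, 88.4, 83.8 and 162 CPM in KMS replicates 1 to 5, against 76.5, 87.9, 71.9, 56.5 and 58.5 CPM in KM. KMS replicates 2, 3 and 5 were above every KM library, replicate 5 by far the most. Its fold change was 1.46 (log2 0.54, standard error 0.24, edgeR unadjusted p = 0.0408, adjusted p = 0.240), and the log2 fold change without KMS replicate 5 was 0.34.

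Chpt1 joins CDP-choline to diacylglycerol and was among the members with the highest level per length, at 106 CPM per kilobase of exon in KMS and 101 in KM, beside Gpd1 at 109.97 in KMS and 73.0 in KM. It had 1060.1, 504, 674, 1319.5 and 856 CPM in KMS replicates 1 to 5, against 894, 710.4, 1329, 646 and 605 CPM in KM, so the groups covered the same range. Its log2 fold change of 0.08 had a standard error of 0.34 (edgeR adjusted p = 0.925). Cept1, which serves choline and ethanolamine alike, was close to constant in KM, at 42.9 to 50.6 CPM, while in KMS it was 41.6 to 53.0 CPM in replicates 1 to 4 and 19.1 CPM in replicate 5.

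Of the choline and ethanolamine kinases, Chka averaged 116 ± 46.7 CPM in KMS and 83.9 ± 31.5 CPM in KM, and Etnk1 219 ± 115 CPM in KMS and 261 ± 74.3 CPM in KM. Chkb, the kinase whose loss causes muscular dystrophy in mice, spread more than any other tested member in KM, with a coefficient of variation of 133%. Chkb had 24.4, 16.0, 11.3, 7.37 and 0.436 CPM in KMS replicates 1 to 5, against 1.42, 1.66, 1.72, 7.43 and 23.7 CPM in KM. KM replicates 1 to 3 and KMS replicate 5 were low and the others were higher in both genotypes. In GENCODE vM21, 50.7% of its exon bases also belong to a readthrough gene on the same strand, Gm44502, so how reads were shared out there is uncertain.

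Of the other phospholipid members, Pcyt1a, which makes CDP-choline, averaged 101 ± 20.1 CPM in KMS and 87.7 ± 10.5 CPM in KM. Cds1 and Cds2, which make CDP-diacylglycerol, had log2 fold changes of -0.08 and 0.28, with Cds2 at 232 CPM in KMS replicate 1 against at most 136 CPM in KM. Ptdss1 and Ptdss2, the phosphatidylserine synthases, had 0.14 and 0.41 on the log2 scale, Pisd, which turns phosphatidylserine into phosphatidylethanolamine in mitochondria, had 0.22, and Crls1, the cardiolipin synthase, had 0.20. Pemt, which methylates phosphatidylethanolamine and is best known from liver, was low, at 1.24 to 4.96 CPM in KMS replicates 1 to 4 and 14.02 CPM in replicate 5, against 1.89 to 4.46 CPM in KM, and its log2 fold change of 0.80 became -0.01 without KMS replicate 5.

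**Figure D2:**
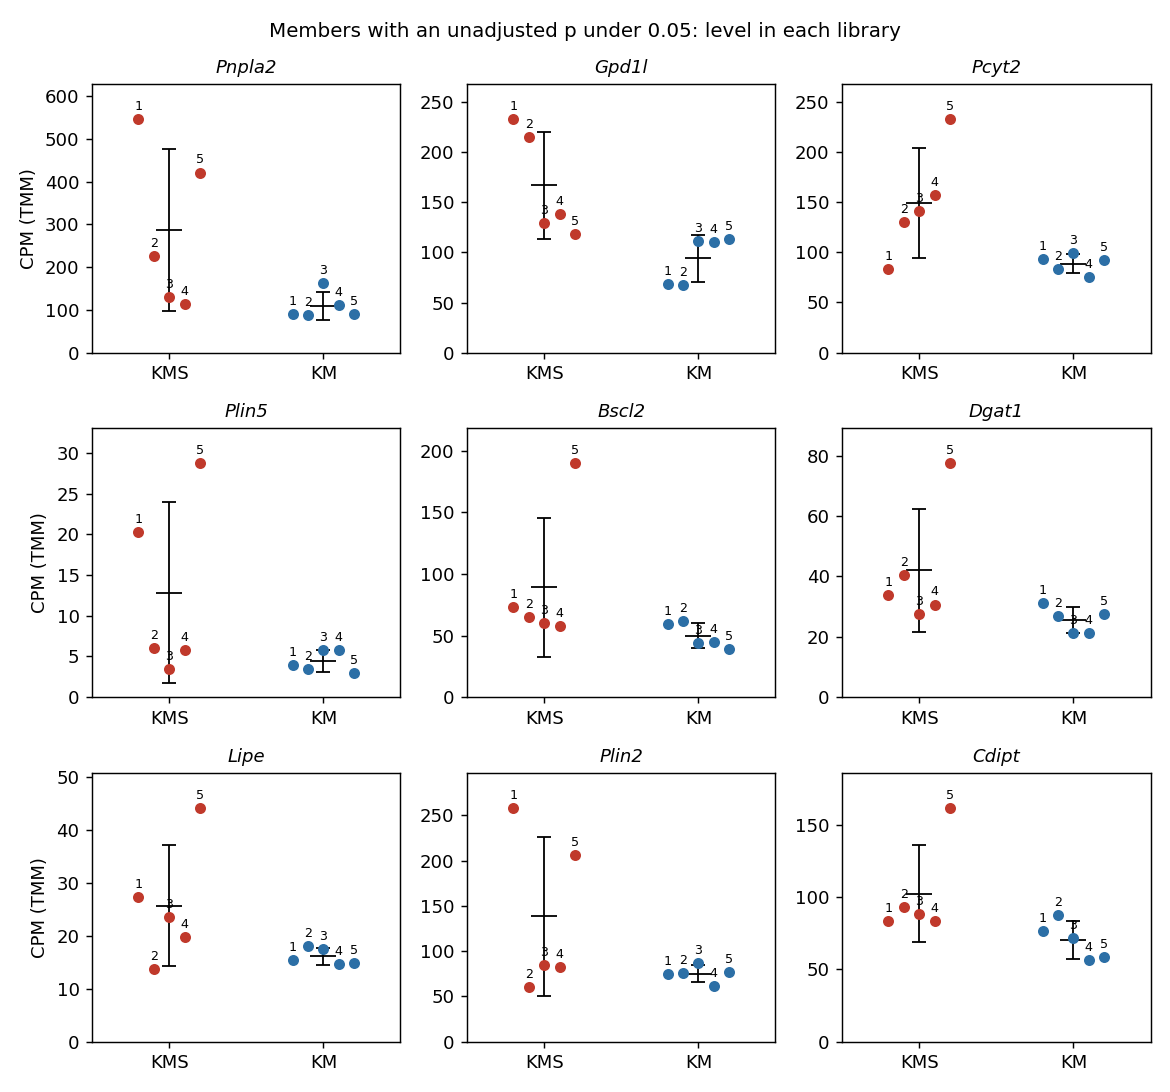
Level of the 9 members with an unadjusted p under 0.05, in CPM with TMM factors, for KMS and KM. Points are libraries numbered by replicate, and the bar is the mean with its SD (n = 5 each). KMS replicate 5 is the highest point in 6 panels and KMS replicate 1 in 3.

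Lipolysis held the member with the lowest p. Pnpla2, adipose triglyceride lipase, removes the first fatty acid of stored triglyceride. It had 547, 226, 129.7, 113 and 421 CPM in KMS replicates 1 to 5, against 91.3, 87.9, 164, 112 and 90.9 CPM in KM. KMS replicates 1, 2 and 5 were above every KM library, replicates 3 and 4 lay within the KM range, and KM replicate 3 was the highest of its group. KMS over KM was 2.63-fold (log2 1.40, standard error 0.43, edgeR unadjusted p = 0.00764, adjusted p = 0.168). Leaving out each library in turn gave log2 fold changes of 1.03 to 1.61, with edgeR adjusted p of 0.114 to 0.340. Its partners, which tune the enzyme, differed less. Abhd5, the coactivator, averaged 53.2 ± 4.99 CPM in KMS and 45.5 ± 7.52 CPM in KM (edgeR adjusted p = 0.494). G0s2, the inhibitor, was 9.70 to 13.7 CPM in KMS replicates 1 to 4 and 95.1 CPM in replicate 5, against 7.43 to 26.5 CPM in KM, and its log2 fold change of 0.69 became -0.51 without that library.

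Lipe, hormone-sensitive lipase, which acts mainly on diacylglycerol, had 27.3, 13.7, 23.5, 19.8 and 44.2 CPM in KMS replicates 1 to 5, against 15.4, 18.0, 17.6, 14.6 and 14.9 CPM in KM. KMS replicates 1, 3, 4 and 5 were above every KM library and replicate 2 was below every one. The fold change was 1.59 (log2 0.67, standard error 0.29, edgeR unadjusted p = 0.0382, adjusted p = 0.237), and the log2 fold change without KMS replicate 5 was 0.42 (unadjusted p = 0.0986). Mgll, which finishes the pathway by freeing glycerol, averaged 62.9 ± 26.2 CPM in KMS and 74.0 ± 29.8 CPM in KM. Lipa, the acid lipase of lysosomes, had 404 CPM in KMS replicate 3 and 90.3 to 260.3 CPM in the other KMS libraries, against 164 to 223 CPM in KM.

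Lpl, the secreted lipase that frees fatty acids from lipoproteins, had the most reads of this role. It had 278, 321, 418, 678 and 246 CPM in KMS replicates 1 to 5, against 375, 267, 749, 438 and 254 CPM in KM, so the groups overlapped, with KM replicate 3 the highest. The log2 fold change was -0.10 with a standard error of 0.38, and 0.23 without KM replicate 3. That library had the highest summed white fat cell markers, described below, and KMS replicate 5 the next highest.

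Among droplet proteins, Plin5, the perilipin that tethers droplets to mitochondria, had 20.2, 6.00, 3.49, 5.77 and 28.7 CPM in KMS replicates 1 to 5, against 3.95, 3.40, 5.80, 5.85 and 2.98 CPM in KM. KMS replicates 1 and 5 were far above every KM library and the other KMS libraries were at the level of KM. The fold change was 2.92 (log2 1.54, standard error 0.56, edgeR unadjusted p = 0.0176, adjusted p = 0.196), and without KMS replicate 5 the log2 fold change was 1.05 (unadjusted p = 0.0567). Plin2, the droplet coat of most non-fat cells, showed the same libraries on top, with 258, 60.5, 84.6, 82.8 and 206 CPM in KMS replicates 1 to 5, against 74.4, 75.8, 86.9, 61.2 and 77.2 CPM in KM. Its fold change was 1.84 (log2 0.88, standard error 0.38, edgeR unadjusted p = 0.0389, adjusted p = 0.238), and KMS replicate 2 was below every KM library. Without KMS replicate 1 the log2 fold change of Plin2 was 0.54 (edgeR unadjusted p = 0.136).

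Plin3 averaged 93.4 ± 21.2 CPM in KMS and 69.0 ± 10.4 CPM in KM, with 4 KMS libraries above all KM libraries and an edgeR unadjusted p of 0.0545. Plin4 varied within both genotypes, with 28.1, 10.1, 2.66, 2.03 and 4.55 CPM in KMS replicates 1 to 5, against 1.42, 1.51, 10.01, 17.5 and 15.1 CPM in KM. Bscl2, seipin, which shapes droplets as they leave the endoplasmic reticulum, had 73.2, 64.6, 60.02, 57.7 and 189.7 CPM in KMS replicates 1 to 5, against 59.4, 61.6, 43.7, 44.4 and 39.3 CPM in KM. KMS replicates 1, 2 and 5 were above every KM library, replicate 5 far above the rest. Seipin gave a fold change of 1.79 (log2 0.84, standard error 0.34, edgeR unadjusted p = 0.0303, adjusted p = 0.222), and without KMS replicate 5 the log2 fold change was 0.39. Fitm2, which helps droplets bud, averaged 17.4 ± 5.34 CPM in KMS and 16.6 ± 5.52 CPM in KM.

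Of the CIDE proteins, which bring droplets together, only Cideb passed the filter. It was 38.0 to 238 CPM in KMS and 46.1 to 121 CPM in KM, and at 82.4 CPM per kilobase of exon in KMS and 58.6 in KM it was among the members with the highest level per length, but 76.3% of its exon bases lie opposite Nop9, and whether the counting used strand is not known here. In all, 11 members share exon bases with another gene of the count table. Cidec and Cidea are better known from fat cells. Cidec had 18, 1, 3, 4 and 13 reads in KMS replicates 1 to 5, against 3, 1, 99, 2 and 1 reads in KM, and Cidea had 30, 2, 0, 2 and 15 reads in KMS, against 2, 2, 48, 1 and 5 reads in KM. Both were thus highest in KM replicate 3, with KMS replicates 1 and 5 next.

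Of the white fat cell markers, Adipoq (adiponectin) was 7.05 CPM in KM replicate 3 and at most 0.0756 CPM in each other library, where 7 of the 10 libraries had 0 reads. Cfd was 18.3 CPM in KMS replicate 5 and 33.9 CPM in KM replicate 3, against at most 1.66 CPM in the others, and Plin1 was 1.37 CPM in KMS replicate 5 and 2.90 CPM in KM replicate 3. Summed over the 6 markers of 8 found in the table, the level was 25.4 to 70.8 CPM in KMS and 26.1 to 99.9 CPM in KM, most of it Fabp4, which endothelium also expresses. Brown fat cell markers, 3 of 4 being found, summed to 45.3 CPM in KMS replicate 5. They summed to 4.82 to 10.04 CPM in the other KMS libraries and 4.64 to 13.0 CPM in KM. In KMS replicates 1 and 5, where Pnpla2, Plin5 and Plin2 were highest, the summed level of white fat cell markers was 47.8 and 70.8 CPM, and Adipoq was 0 and 0.0623 CPM. The part of fat cells in the levels of these genes was not tested. Leaving out KM replicate 3 and KMS replicate 5 together was an alternative chosen after seeing the data. Pnpla2 then had a log2 fold change of 1.41 (edgeR unadjusted p = 0.0107). Plin5 had 1.14 and Plin2 0.76, with edgeR unadjusted p of 0.0586 and 0.0934. Bscl2 and Dgat1 were at 0.32 each, with edgeR unadjusted p of 0.127 and 0.143.

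**Figure D3:**
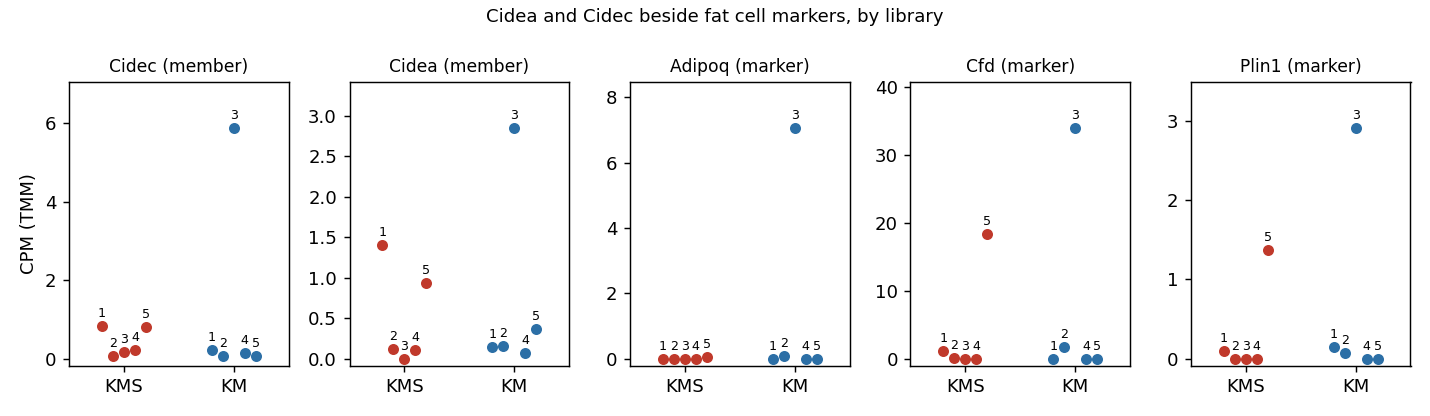
Level of the droplet members Cidec and Cidea and of the white fat cell markers Adipoq, Cfd and Plin1 in KMS and KM, in CPM with TMM factors. Points are libraries numbered by replicate, and KM replicate 3 is the highest in each panel (Adipoq 7.05 CPM).

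KMS libraries differed in which members stood out. Of the 45 tested members, 21, 15, 14, 16 and 24 were above the KM range in KMS replicates 1 to 5, and 7, 13, 3, 3 and 15 were below it. KMS replicate 5 thus had the most members on either side. It was the highest of the 10 libraries for 20 members, KMS replicate 1 for 10, KM replicate 3 for 5, and KMS replicate 4 for 4. The matching counts over all tested genes were not made, so these counts do not set the members apart from other genes. KMS replicate 5 also stood apart over all genes, with a TMM factor of 0.642 and a mean Spearman correlation of 0.851 with its group. Over the 47 members the summed level was 5992, 4085, 5443, 6145 and 5965 CPM in KMS replicates 1 to 5, against 4611, 4057, 6009, 4239 and 3821 CPM in KM, so KM replicate 3 reached the level of KMS while KMS replicate 2 lay with KM.

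The count of members at an unadjusted p under 0.05 depended on single libraries. It was 3 without KMS replicate 5 (Gpd1l, Pnpla2 and Pcyt2), 4 without KM replicate 4 and 13 without KMS replicate 2, and no member was called in any of these fits. Pnpla2, Gpd1l and Pcyt2 kept an unadjusted p under 0.05 whichever single library was left out, with highest values of 0.0242, 0.0287 and 0.0330 in edgeR. With the level of Y-linked genes as a covariate, 9 members again had such a p, but Pnpla2 (0.0532), Gpd1l (0.0780) and Plin2 (0.0826) did not, while Agpat2, Cideb and G0s2 did.

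**Figure D4:**
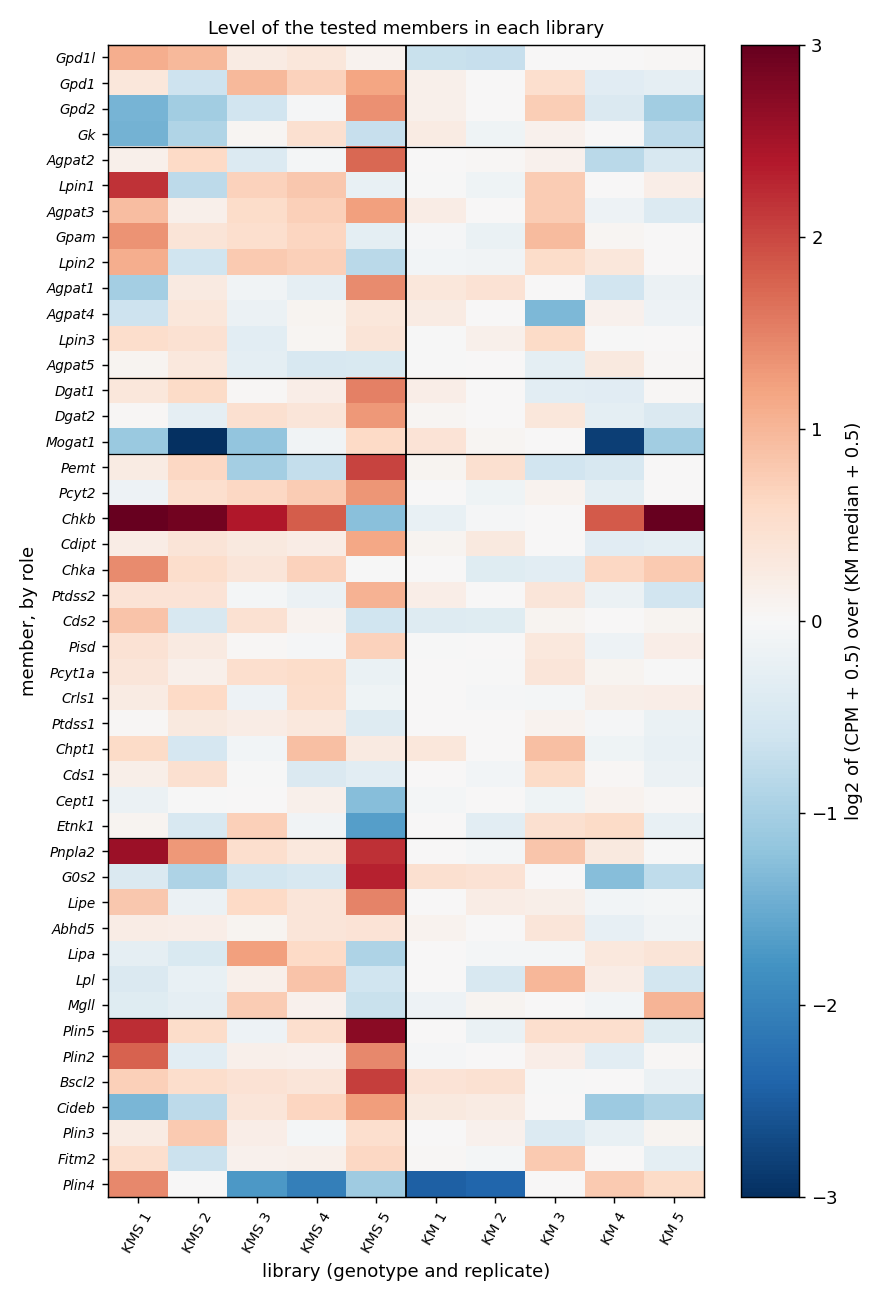
Level of the 45 tested members in each library as log2 of (CPM + 0.5) over the KM median + 0.5, KMS libraries left and KM right, with black lines between roles and colours capped at 3 either way. KMS replicate 5 has 24 members above the KM range and 15 below, and Chkb and Plin4 vary within both genotypes. The matching counts over all tested genes were not made.

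Beside these genes, markers of 3 other cell types had negative log2 fold changes throughout. The 6 tested macrophage markers did so (median -1.27, summed level 92.3 to 327 CPM in KMS and 212 to 697 CPM in KM), as did the 6 fibroblast markers (median -1.43, 127 to 189 CPM in KMS and 244 to 545 CPM in KM) and the 4 tested T cell markers (median -2.33, 1.40 to 6.03 CPM in KMS and 16.4 to 33.8 CPM in KM). None of them was called, but 3 macrophage, 4 fibroblast and 4 T cell markers had an edgeR unadjusted p under 0.05. All of these were lower in KMS, beside 8.62% of all tested genes lower at such a p. Of the collecting duct markers, 6 of 7 had negative log2 fold changes, 2 of them with such a p. For thick ascending limb and distal tubule 4 of 6 were positive, with 1 such p in each direction. Endothelial markers summed to 105 to 982 CPM in KMS and 207 to 853 CPM in KM, and adrenal cortex markers to 1.26 to 4.07 CPM in KMS and 0.947 to 2.27 CPM in KM, close to 0. The part of these cells in the levels of the lipid genes was not tested.

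Other genes of the same pathways were read from a list of 75 tested genes that are not members. None was called, beside 0.102% of all tested genes. An unadjusted p under 0.05 was found for 8 with the higher mean in KMS and 5 with the lower mean, together 17.3%. Over all tested genes 19.5% had such a p, 10.8% with the higher and 8.62% with the lower mean in KMS. Of the 75 log2 fold changes 45 were positive, beside 54.0% of all tested genes. Among lipases and their partners, Angptl4, a secreted inhibitor of Lpl, had 195, 18.1, 67.3, 61.4 and 247 CPM in KMS replicates 1 to 5, against 25.4, 29.6, 27.5, 12.4 and 9.80 CPM in KM (log2 fold change 2.49, edgeR unadjusted p = 0.00185, adjusted p = 0.133). KMS replicates 1 and 5 were again the highest, and replicate 2 lay within the KM range.

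Among phospholipid genes, Tamm41, the CDP-diacylglycerol synthase of mitochondria on the way to cardiolipin, had 19.6 to 51.3 CPM in KMS and 15.3 to 19.7 CPM in KM, and Lpcat2, which remodels phosphatidylcholine in inflammatory cells, had 0.187 to 2.58 CPM in KMS and 2.60 to 8.63 CPM in KM without overlap. Mboat2 and Etnk2 had log2 fold changes of -1.48 and 1.42. Among droplet genes, Tmem159 (promethin, a partner of seipin) had 28.5 to 50.1 CPM in KMS and 19.8 to 27.1 CPM in KM without overlap, and Aup1 reached 675 CPM in KMS replicate 5. Among regulators, Pparg, the receptor that drives fat cell genes, had 1.79 to 3.43 CPM in KMS and 3.43 to 6.75 CPM in KM, and Hif1a and Nr1h2 had log2 fold changes of -0.62 and 0.86. Agpat6 was the 1 gene past that p among the other acyltransferases, with 0.40 on the log2 scale. None of these had an edgeR adjusted p under 0.05.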

How the data were processed

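RNA of 5 KMS and 5 KM mice was sequenced as polyadenylated, directional libraries. According to the methods, the authors removed adapters and poor reads, used HISAT2 on GRCm38 and counted reads by gene with HTSeq. The strand setting is not stated there. Deposited values are raw counts for each mouse, neither normalized nor pooled by the authors, with totals of 10873993 to 25029639. Deposited columns of the authors' own comparison (log2 fold change, p-value and adjusted p) were not used. Labels do not say more of the replicates than their numbers. The p-values set the difference between genotypes against the spread between these libraries, each taken as a separate mouse.

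The counts were fitted over all genes with edgeR 4.0.16 in R 4.3.3 (TMM factors, filterByExpr, quasi-likelihood test without covariates, Benjamini-Hochberg adjustment over 15728 genes), and called at an adjusted p under 0.05 and a fold change over 1.5. CPM use the TMM factors, and standard errors are those of the log2 fold change. Members and gene lists were chosen with earlier results of these data known, so no list was tested. Values in every library are given for members with an unadjusted p under 0.05 or no overlap, and for the member of highest mean CPM in each role, some others being added after their values were seen. Of other genes, up to 4 per list with an unadjusted p under 0.05 are named, by p. Exons are from GENCODE vM21, promoters from RefSeq (GRCm38.p6).

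Alternatives were RLE and upper-quartile factors, DESeq2 1.42.0, limma-voom (limma 3.58.1), the likelihood ratio test, a stricter filter and none, calls without a fold change limit, the replicate number as a block, Y-linked genes as a covariate, RUVg with 1 factor, each library left out, and KM replicate 3 with KMS replicate 5 left out. Plots used matplotlib 3.10.9.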

Additional observations from a re-analysis of the deposited data

Results flagged for a closer look

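All 47 members were screened in both genotypes, 94 groups of 5 libraries, for 1 library far from the other 4. There were 15 such cases, all of them high values. The screen is set to mark about 1 in 20 groups of independent, normal values. Members share libraries and the screen used CPM without a log scale, so that rate gives no expected count here. In KMS the library was replicate 5 each time. There Bscl2 was 189.7 CPM, against 73.2 CPM in the next highest KMS library, Dgat1 was 77.4 CPM against 40.3 CPM, and Cdipt was 162.0 CPM against 93.4 CPM. G0s2 was 95.1 CPM there, against 13.7 CPM in the next, and Gpd2 was 21.2 CPM, against 7.64 CPM. The same library has a TMM factor of 0.642 and the lowest mitochondrial share, 4.26%, whose part in these values was not tested.

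In KM it was replicate 3 or replicate 5. KM replicate 3, the library with the highest summed level of white fat cell markers, stood above the other KM libraries for Gpam (222.7 CPM, next 120.8 CPM), Lpin1 (69.7 CPM, next 46.5 CPM), Lpin3 (21.3 CPM, next 15.5 CPM), Cds1 (83.6 CPM, next 56.9 CPM), Pcyt1a (106.03 CPM, next 87.3 CPM) and Fitm2 (26.2 CPM, next 15.4 CPM). It also stood above them for the sparse members Cidea (2.84 CPM, next 0.363 CPM) and Cidec (5.86 CPM, next 0.223 CPM). KM replicate 5 stood above for Mgll (126.9 CPM, next 65.9 CPM) and Chkb (23.7 CPM, next 7.43 CPM). The part of fat cells in these levels was not tested.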

How the results depend on the processing

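Over all genes the count called was 16, with 25 under upper-quartile factors, 33 with limma-voom, 602 with the likelihood ratio test, 507 with RUVg, 7 with the level of Y-linked genes as covariate and 1072 with DESeq2, and 9 to 42 with 1 library left out. Fitting the replicate number as a block called 2, but same-numbered libraries did not deviate together (correlations of -0.44 to 0.14). So few libraries cannot settle whether the numbers pair the mice, and the labels do not say. Among members the count called stayed 0, apart from Pnpla2 with DESeq2 (1 member, log2 fold change 1.40, adjusted p = 0.0440), beside edgeR adjusted p of 0.114 to 0.340 with 1 library left out. The 9 members at an unadjusted p under 0.05 became 4 under upper-quartile factors, 3 with the replicate block, and 3 to 13 with 1 library left out. The median log2 fold change of all 45 tested members, 0.28, was 0.24 to 0.41 with 1 library left out. Chpt1 (0.08) changed sign to -0.062 under upper-quartile factors and ran from -0.11 to 0.31 with 1 library left out. Lpl (-0.10) ran from -0.39 to 0.23. Without KM replicate 3 and KMS replicate 5, an alternative chosen after seeing the data, Chpt1 was 0.32 and Lpl 0.35. These alternatives were read for 14 members, those with an unadjusted p under 0.05, no overlap or the highest mean CPM in their role. The other 12 of these kept their sign in each of the 22 alternatives. Outside the 14, signs also changed, such as those of Agpat1, G0s2, Pemt and Gpd2 without KMS replicate 5. The cause of these changes was not tested. Depth limits Cidea and Cidec, with at most 99 reads in a library.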
